A study of Mus musculus with 18 samples.

Results

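The genes described here are 10 genes that mark the tuft cell, a rare chemosensory cell type of the gut epithelium: Dclk1, Trpm5, Il25, Pou2f3, Gfi1b, Alox5, Alox5ap, Ptgs1, Hpgds and Avil. They were taken by symbol from a table of RNA-Seq counts per gene, and all 10 were found among its 24047 genes. RNA was measured in colon crypt epithelial cells of C57BL/6 mice in 6 groups of 3 libraries, 18 in all. WT mice and mice labelled Ern2-/- (lacking ERN2, also called IRE1β, an endoplasmic reticulum stress sensor of mucus-secreting epithelia) were examined in 3 microbial states. Mice were raised conventionally (CONV), kept germ free (GF), or kept germ free and then COLONIZED, which means that they received cecal microbes by a single gavage and were examined at 14 days, housed outside the isolator after the gavage. All groups shared the C57BL/6 background and the crypt isolation, in which EDTA released the epithelium and intact crypts were caught on a strainer. Age and sex were not among the labels used here.

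Tuft cells depend on the transcription factor POU2F3 and sense luminal compounds through a taste-like cascade that opens the cation channel TRPM5. They release the cytokine IL-25, which acts on group 2 innate lymphoid cells, and they hold enzymes that make leukotrienes and prostaglandins from arachidonic acid. Expansion of tuft cells is best known from the small intestine during infection with helminths or succinate-producing protists.

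The depth of the libraries was between 5.87 and 23.2 (1e6 counts), with the smallest among the CONV groups. The epithelial markers Epcam (8948 to 34787 normalised counts) and Krt8 (37125 to 69978) were high in all 18 libraries. Normalised Ern2 counts were 1909 to 3100 in the 9 WT libraries and 386 to 3336 in the 9 libraries labelled Ern2-/-, so all 9 of the latter held Ern2 reads. Replicates 1 and 3 of GF-Ern2-/- and replicate 1 of COLONIZED-Ern2-/- were within or above the range of WT, and replicate 3 of COLONIZED-Ern2-/- (1885) was just below it. The list of 14 innate lymphoid circuit genes described below, which holds Retnlb, summed to 5715 normalised counts in COLONIZED-Ern2-/- replicate 1. That sum was 5649 and 4961 in the rest of its group and 8678 to 13223 in COLONIZED-WT. It overlapped between GF-WT (4368 to 5427) and GF-Ern2-/- (3938 to 5142). Whether labels were exchanged or the reads lie outside the deleted part of Ern2 was not tested, and every genotype comparison here compares libraries by their label. Values without the 3 libraries of highest Ern2 are given for the 10 genes and for the lists of other tuft cell, taste signalling and enteroendocrine genes. Y-linked transcripts were counted in 0 GF-WT, 2 COLONIZED-WT, 1 CONV-WT, 2 GF-Ern2-/-, 2 COLONIZED-Ern2-/- and 3 CONV-Ern2-/- libraries. Nothing in the labels says more of how the 3 mice of a group were chosen, and p-values measure the spread between these mice.

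Since several of these genes varied together, 3 promoters are shown, from 250 bases before to 50 bases after the start, taken from RefSeq on GRCm38.p6. They belong to Avil and Alox5, which were each called in 3 comparisons, and to Hpgds, which was called in none. Capitals mark the octamer ATGCAAAT, the letters to which POU factors bind, searched on both strands.

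Avil promoter, chr10:127000459-127000758, plus strand: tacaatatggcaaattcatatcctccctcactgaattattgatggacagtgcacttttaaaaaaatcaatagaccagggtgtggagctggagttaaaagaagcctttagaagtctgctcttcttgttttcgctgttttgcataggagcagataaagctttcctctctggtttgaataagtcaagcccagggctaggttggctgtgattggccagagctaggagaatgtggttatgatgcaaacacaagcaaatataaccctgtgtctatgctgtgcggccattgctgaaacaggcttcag

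Alox5 promoter, chr6:116461129-116461428, minus strand: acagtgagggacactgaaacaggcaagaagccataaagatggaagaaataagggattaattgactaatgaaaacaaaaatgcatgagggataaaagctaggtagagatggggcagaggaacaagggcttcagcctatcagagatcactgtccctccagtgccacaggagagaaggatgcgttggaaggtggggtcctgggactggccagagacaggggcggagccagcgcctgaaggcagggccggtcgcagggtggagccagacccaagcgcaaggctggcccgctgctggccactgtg

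Hpgds promoter, chr6:65144681-65144980, minus strand: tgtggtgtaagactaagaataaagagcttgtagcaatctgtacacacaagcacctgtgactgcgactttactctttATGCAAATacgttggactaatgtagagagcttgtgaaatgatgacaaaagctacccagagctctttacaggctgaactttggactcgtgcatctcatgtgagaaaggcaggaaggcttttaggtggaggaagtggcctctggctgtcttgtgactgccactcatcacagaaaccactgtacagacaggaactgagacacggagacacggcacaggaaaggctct

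Of the 10 genes, 7 had a promoter in the RefSeq table, with 8 promoters in all because Dclk1 has 2. The octamer was found in 1 of these 8, that of Hpgds, and in 1.74% of the 32851 promoters of the same length. A match describes letters only and shows no binding.

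Scaled to exon length and library total (RPKM, the mean of the 18 libraries), Avil (7.50) and Trpm5 (7.39) stood highest, followed by Dclk1 (4.24), Alox5ap (3.86), Alox5 (3.41), Pou2f3 (2.16), Ptgs1 (1.89), Hpgds (1.52), Gfi1b (0.743) and Il25 (0.300). All levels below are normalised counts, that is, counts divided by the size factor of the library, and are compared only between libraries for the same gene. In bulk RNA, fewer tuft cells and less tuft cell RNA per cell cannot be told apart.

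Every call among these genes was a higher level in crypts exposed to microbes than in GF crypts. A gene was called at an adjusted p under 0.01 in DESeq2. In COLONIZED-WT against GF-WT crypts, 6 of the 10 genes were higher, where 9.13% of all genes tested were called higher. In CONV-WT against GF-WT crypts 5 were higher (background 5.56%), in CONV-Ern2-/- against GF-Ern2-/- crypts 4 (1.58%), and in COLONIZED-Ern2-/- against GF-Ern2-/- crypts 1 (3.62%). None was called lower in any of these comparisons. The comparisons within a genotype share their GF libraries and are not independent of each other.

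**Figure D1:**
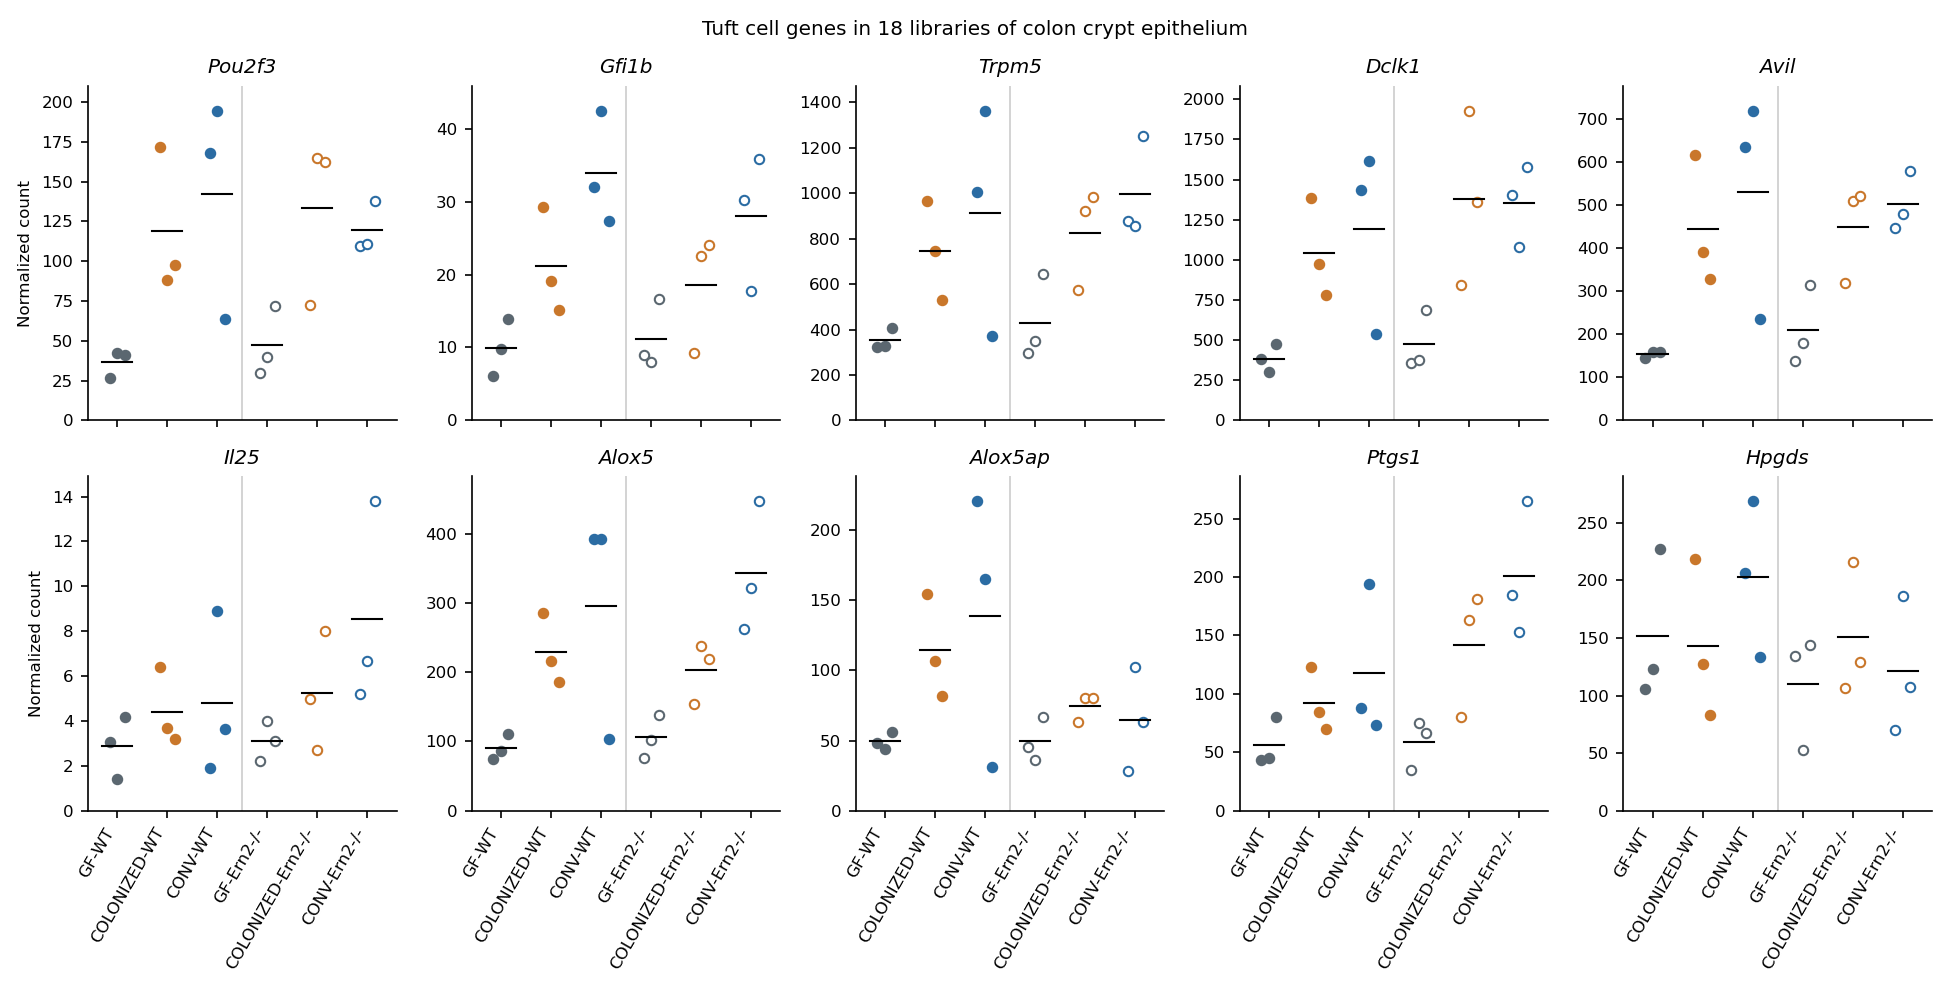
Normalised counts (y axis, linear) of the 10 genes in each of the 18 libraries, by microbial state and genotype on the x axis. Filled points are WT, open points are Ern2-/-, and bars are means of 3 libraries. GF libraries lie below the exposed libraries of their genotype for Pou2f3, Dclk1 and Avil, CONV-WT replicate 3 lies below the other CONV-WT libraries for 9 of 10 genes, and Hpgds shows no such order.

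Pou2f3 encodes the POU factor that tuft cells require, and lies on the minus strand at chr9:43123939-43210369 (GRCm38, as for all gene positions here). Replicates 1 to 3 had 26.9, 42.0 and 41.0 normalised counts when GF-WT, 172, 88.1 and 97.6 when COLONIZED-WT, and 168, 195 and 63.9 when CONV-WT. Libraries labelled Ern2-/- had 29.8, 40.1 and 71.9 when GF, 72.6, 165 and 162 when COLONIZED, and 109.6, 111 and 138 when CONV. Within each genotype every GF library was below every COLONIZED library, and the same held against CONV. The log2 fold change was 1.71 (SE 0.34, DESeq2 adjusted p = 1.64e-05) in COLONIZED-WT and 1.95 (SE 0.47, DESeq2 adjusted p = 0.000644) in CONV-WT, each against GF-WT. In Ern2-/- crypts it was 1.50 in COLONIZED (DESeq2 adjusted p = 0.0113) and 1.33 in CONV (DESeq2 adjusted p = 0.0267), each against GF and neither called.

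Gfi1b, a zinc finger repressor expressed in tuft cells and in blood cell precursors, lies on the minus strand at chr2:28609450-28621982. Its normalised counts were low, at 6.15, 9.81 and 13.9 for GF-WT, 29.2, 19.1 and 15.1 for COLONIZED-WT, and 32.1, 42.5 and 27.4 for CONV-WT. Those of Ern2-/- libraries were 8.95, 8.02 and 16.7 for GF, 9.26, 22.5 and 24.1 for COLONIZED, and 30.3, 17.8 and 35.9 for CONV. Of the 4 exposed groups, only COLONIZED-Ern2-/- overlapped its GF group. Gfi1b was called in CONV-WT against GF-WT alone, at 1.77 on the log2 scale (SE 0.49, DESeq2 adjusted p = 0.00356), and was 1.09 in COLONIZED-WT (DESeq2 adjusted p = 0.120).

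Trpm5 encodes the channel that depolarises taste and tuft cells, and lies on the minus strand at chr7:143069153-143094642. GF-WT levels were 323, 326 and 407, COLONIZED-WT levels 965, 745 and 531, and CONV-WT levels 1003, 1363 and 373. With the Ern2-/- label, GF levels were 296, 348 and 645, COLONIZED levels 572, 922 and 983, and CONV levels 877, 858 and 1249.9. The highest GF-Ern2-/- library, replicate 3, thus lay above the lowest COLONIZED-Ern2-/- library, replicate 1. Trpm5 was called in COLONIZED-WT against GF-WT (log2 fold change 1.09, SE 0.23, DESeq2 adjusted p = 4.51e-05). It missed the threshold in CONV-WT (1.36, DESeq2 adjusted p = 0.0214), CONV-Ern2-/- (1.20, DESeq2 adjusted p = 0.0113) and COLONIZED-Ern2-/- crypts (0.94, DESeq2 adjusted p = 0.0478).

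Dclk1, a microtubule-associated kinase that is the most used marker of mouse tuft cells, lies on the plus strand at chr3:55242364-55539068. Its normalised counts were 379, 304 and 473 for GF-WT, 1384, 973 and 779.5 for COLONIZED-WT, and 1432, 1614 and 537 for CONV-WT. Ern2-/- libraries had 360.2, 375 and 690.0 when GF, 844, 1929 and 1362 when COLONIZED, and 1407, 1082 and 1576 when CONV. Every library exposed to microbes was above every GF library of its genotype. Dclk1 was the one gene called in all 4 comparisons with GF: 1.45 (SE 0.25, DESeq2 adjusted p = 1.76e-07) in COLONIZED-WT, 1.62 (SE 0.44, 0.00260) in CONV-WT, 1.53 (SE 0.36, 0.000552) in COLONIZED-Ern2-/- and 1.51 (SE 0.32, 0.000187) in CONV-Ern2-/- crypts.

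Avil encodes advillin, an actin-binding protein of the villin family found in the apical tuft, and lies on the plus strand at chr10:127000709-127020994. GF-WT libraries had 145, 159.7 and 159 normalised counts, COLONIZED-WT 616, 391 and 328, and CONV-WT 635, 720.0 and 236. GF-Ern2-/- libraries had 137, 180.5 and 316, COLONIZED-Ern2-/- 319, 509.6 and 522, and CONV-Ern2-/- 448, 479.9 and 579. The GF ranges did not meet those of the exposed groups, although GF-Ern2-/- replicate 3 and COLONIZED-Ern2-/- replicate 1 lay side by side. Avil was higher than in GF in COLONIZED-WT (1.54, SE 0.25, DESeq2 adjusted p = 4.19e-08), CONV-WT (1.77, SE 0.42, 0.000561) and CONV-Ern2-/- crypts (1.24, SE 0.35, 0.00867), and it was not called in COLONIZED-Ern2-/- crypts (1.09, 0.0203).

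Il25, the cytokine by which tuft cells signal to innate lymphoid cells (plus strand, chr14:54932695-54935837), was too low to compare, with 2 to 9 reads counted per library. Normalised counts ran from 1.40 to 4.17 in GF-WT, 3.18 to 6.42 in COLONIZED-WT, 1.89 to 8.89 in CONV-WT, 2.24 to 4.01 in GF-Ern2-/-, 2.70 to 8.02 in COLONIZED-Ern2-/- and 5.22 to 13.8 in CONV-Ern2-/- libraries. CONV-Ern2-/- was the one group whose libraries all lay above their GF group, with a log2 fold change of 1.40 (DESeq2 adjusted p = 0.518). A change in Il25 was not detectable at this depth.

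Alox5 encodes 5-lipoxygenase, the first enzyme of leukotriene synthesis, and lies on the minus strand at chr6:116410077-116461178. GF-WT libraries stood at 74.5, 86.9 and 110.4 normalised counts, COLONIZED-WT at 285, 216 and 186, and CONV-WT at 392, 392 and 104. GF-Ern2-/- libraries stood at 76.8, 102 and 139, COLONIZED-Ern2-/- at 155, 238 and 219, and CONV-Ern2-/- at 262, 322 and 447. CONV-WT replicate 3 alone fell inside the range of its GF group. Alox5 was higher than in GF in COLONIZED-WT (1.35, SE 0.25, DESeq2 adjusted p = 2.29e-06), CONV-WT (1.70, SE 0.51, 0.00812) and CONV-Ern2-/- crypts (1.69, SE 0.34, 6.26e-05), and was not called in COLONIZED-Ern2-/- crypts (0.94, 0.0265).

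Alox5ap, which encodes the membrane protein FLAP that presents arachidonic acid to 5-lipoxygenase (plus strand, chr5:149264767-149288153), was called in 1 comparison. WT libraries had 48.4, 44.1 and 56.2 when GF, 155, 107 and 81.8 when COLONIZED, and 221, 165 and 31.0 when CONV. Ern2-/- libraries gave 45.5, 36.1 and 66.7 when GF, 63.4, 80.1 and 80.2 when COLONIZED, and 28.2, 102 and 63.5 when CONV. Both CONV groups reached below their GF groups, and only COLONIZED-WT stood wholly above GF. That comparison was called (1.22, SE 0.30, DESeq2 adjusted p = 0.000718), while CONV-WT (1.48, 0.0814), COLONIZED-Ern2-/- (0.59) and CONV-Ern2-/- (0.35, 0.799) were not.

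Ptgs1 encodes cyclooxygenase 1, the constitutive enzyme at the head of prostaglandin synthesis, and lies on the plus strand at chr2:36230426-36252272. GF-WT levels were 43.0, 45.5 and 80.5, COLONIZED-WT levels 123.4, 84.5 and 69.9, and CONV-WT levels 87.7, 194 and 73.0, so both exposed WT groups overlapped GF. GF-Ern2-/- levels were 35.0, 75.2 and 66.7, COLONIZED-Ern2-/- levels 80.5, 163 and 182, and CONV-Ern2-/- levels 185, 153 and 265, with no overlap with GF. Ptgs1 was called in CONV-Ern2-/- against GF-Ern2-/- crypts (1.77, SE 0.40, DESeq2 adjusted p = 0.000428). It was not called in COLONIZED-Ern2-/- (1.26, DESeq2 adjusted p = 0.0266), CONV-WT (1.06, 0.115) or COLONIZED-WT crypts (0.72, 0.104).

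Hpgds encodes the prostaglandin D synthase of hematopoietic and tuft cells (minus strand, chr6:65117293-65144908), and its levels overlapped between GF and exposed crypts in all 4 comparisons. GF-WT libraries had 105, 123 and 227 normalised counts, COLONIZED-WT libraries 218, 127 and 83.4, and CONV-WT libraries 207, 269 and 133. GF-Ern2-/- libraries had 134, 53.1 and 144, COLONIZED-Ern2-/- libraries 106, 216 and 129, and CONV-Ern2-/- libraries 70.0, 187 and 108. The log2 fold changes against GF were -0.08, 0.41, 0.44 and 0.12 in COLONIZED-WT, CONV-WT, COLONIZED-Ern2-/- and CONV-Ern2-/- crypts. Without the 3 libraries of high Ern2, when GF-Ern2-/- replicate 2 (53.1) is the only GF-Ern2-/- library, the last 2 values were 1.70 (SE 0.70) and 1.18 (SE 0.67), neither called.

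**Figure D2:**
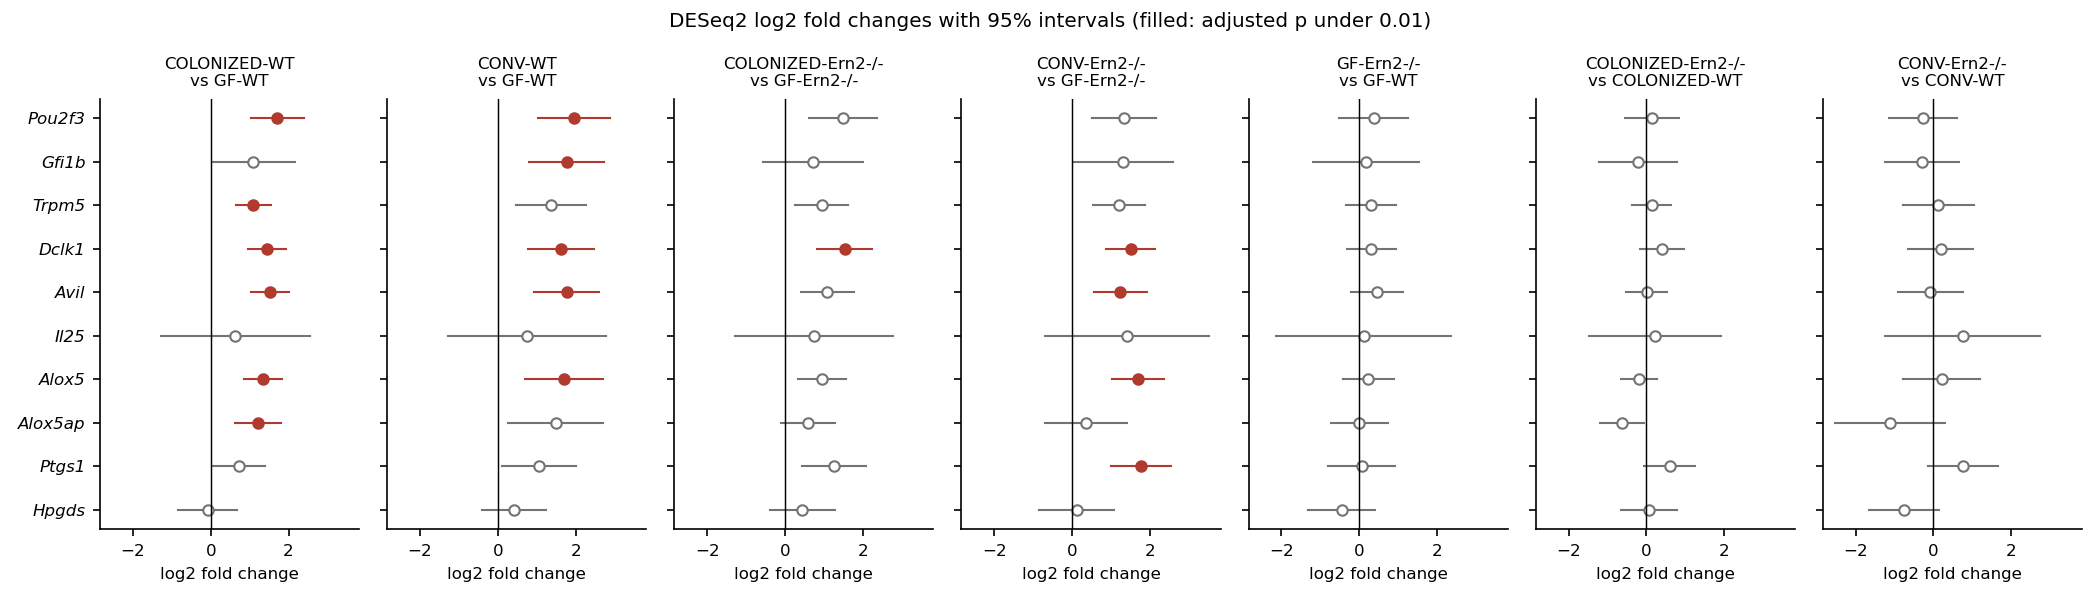
DESeq2 log2 fold changes (x axis) of the 10 genes in 7 comparisons, with 95% intervals as bars and filled red points where the adjusted p was under 0.01. Points against GF lie to the right of 0 for all genes except Hpgds in COLONIZED-WT, and those between genotypes lie on both sides of 0.

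Over the 10 genes the median log2 fold change against GF was 1.16 in COLONIZED-WT, 1.55 in CONV-WT, 0.94 in COLONIZED-Ern2-/- and 1.33 in CONV-Ern2-/- crypts, where the median of all genes was between -0.02 and 0.00. By role, both transcription factors were called in CONV-WT and 1 of them in COLONIZED-WT, and neither in the Ern2-/- comparisons. Of Trpm5, Dclk1 and Avil, 3 were called in COLONIZED-WT, 2 in CONV-WT, 2 in CONV-Ern2-/- and 1 in COLONIZED-Ern2-/- crypts. The 4 eicosanoid genes gave 2, 1, 2 and 0 calls in the same order. Every exposed library was above every GF library for 7 genes in COLONIZED-WT (22.9% of all genes), 4 in CONV-WT (17.9%), 8 in CONV-Ern2-/- (11.6%) and 5 in COLONIZED-Ern2-/- crypts (16.4%).

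These counts depended on the tool and on single libraries. The edgeR quasi-likelihood test called 3 of the 9 genes it kept in COLONIZED-WT against GF-WT, namely Dclk1 (edgeR adjusted p = 0.00882), Avil (0.00784) and Alox5 (0.00883), with a background of 3.12% higher, and it called 0 in CONV-WT (0.0714%), CONV-Ern2-/- (0.00%) and COLONIZED-Ern2-/- crypts (0.0799%), where 8, 7 and 6 of the 10 genes were higher at an unadjusted p under 0.05 in DESeq2, beside 15.8%, 9.18% and 11.9% of all genes (8 and 19.0% in COLONIZED-WT). With a term for the Y-linked pattern, which was absent in GF-WT, DESeq2 called 0 genes in both WT comparisons, with log2 fold changes from -0.25 to 1.35 in COLONIZED-WT and 0.40 to 1.82 in CONV-WT, where sex and microbial state cannot be fully told apart. In the Ern2-/- comparisons the counts with the same term were 6 in CONV and 4 in COLONIZED crypts. With the library total as a term instead, 6 genes were called in each WT comparison with GF, 0 in CONV-Ern2-/- and 5 in COLONIZED-Ern2-/- crypts. The share of all genes called with either term is not given here, so those counts stand without a background.

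Pou2f3, Trpm5, Dclk1, Avil and Alox5 stayed called in COLONIZED-WT against GF-WT in 6 of 6 fits that each left out 1 library, and Alox5ap in 4. The CONV-WT count was less stable. It was 0 without CONV-WT replicate 1 or 2, 1 without GF-WT replicate 1 or 2, and 7 without CONV-WT replicate 3, when Trpm5 and Alox5ap were added. CONV-WT replicate 3 had 8.20 in the same unit of 1e6 counts, the lowest level of its group in 9 of the 10 genes, and a summed level of 9 mesenchymal markers of 272 against 28.3 and 53.3 in the other CONV-WT libraries. That sum was 5.55 to 15.4 in GF-WT, and in Ern2-/- it was 14.2 to 51.1 in GF, 10.7 to 21.1 in COLONIZED and 28.2 to 199 in CONV. All 9 markers had log2 fold changes above 0 in CONV against GF in both genotypes (2 called in WT, 1 in Ern2-/-), and their part in the tuft cell gene levels was not tested.

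The Ern2-/- counts against GF likewise moved with single libraries. In COLONIZED-Ern2-/- it was 0 without GF-Ern2-/- replicate 1 or COLONIZED-Ern2-/- replicate 2 or 3, 2 without GF-Ern2-/- replicate 2, 3 without COLONIZED-Ern2-/- replicate 1 and 5 without GF-Ern2-/- replicate 3. In CONV-Ern2-/- it was 1 without CONV-Ern2-/- replicate 3. GF-Ern2-/- replicate 3 was the highest of its group in 8 of the 10 genes and COLONIZED-Ern2-/- replicate 1 the lowest of its group in 9, and both had Ern2 counts in the range of WT or above. Without the 3 libraries of high Ern2, in one fit of the remaining libraries of all groups that assumes the lone GF-Ern2-/- library to vary like the others, Pou2f3 (2.03) and Dclk1 (2.13) were called in COLONIZED-Ern2-/- and Dclk1 (1.85) alone in CONV-Ern2-/- crypts, and all 10 log2 fold changes were above 0 in both. In CONV-Ern2-/- crypts Alox5 (1.74, DESeq2 adjusted p = 0.0265), Avil (1.47, 0.0304) and Ptgs1 (1.41, 0.0782) lost their calls there. The GF-Ern2-/- library left in that fit, replicate 2, had a summed level of small intestine and stomach markers of 3512, against 98.4 and 378 in the other GF-Ern2-/- libraries, and it was also the library with the lowest Hpgds level of all 18. Its correlations with the other 2 libraries of its group, 0.934 and 0.943, were below the 0.969 between those, and the part of these differences in the values was not tested.

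Between the genotypes, 0 of the 10 genes were called in any microbial state. In CONV crypts the background was 2.89% by DESeq2 and 0.00% by edgeR, with 0 of the 10 genes and 16.9% of all genes at an unadjusted p under 0.05. In GF crypts it was 0.0350%, 0.00% and 1.48%, again with 0 of the 10 genes at that unadjusted p. In COLONIZED crypts it was 1.36%, 0.00786% and 22.0%, and Alox5ap was the 1 gene of the 10 at that unadjusted p. The median log2 difference, Ern2-/- minus WT, was 0.02 in CONV, 0.20 in GF and 0.07 in COLONIZED crypts, beside 0.02, 0.02 and -0.00 for all genes.

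Alox5ap had the lowest adjusted p of the 10 genes between the genotypes in COLONIZED crypts, still above the threshold. All 3 COLONIZED-Ern2-/- libraries (63.4 to 80.2) were below all 3 COLONIZED-WT libraries (81.8 to 155), as ranges did not overlap for 30.2% of all genes, and the log2 difference was -0.63 (SE 0.29, 95% interval -1.19 to -0.07, DESeq2 adjusted p = 0.169). In CONV crypts it was -1.12 (SE 0.72, 95% interval -2.54 to 0.29, DESeq2 adjusted p = 0.461), and without CONV-WT replicate 3 it was -1.61 (DESeq2 adjusted p = 0.0137). Ptgs1 lay the other way, at 0.76 in CONV (95% interval -0.13 to 1.65) and 0.60 in COLONIZED crypts (-0.05 to 1.26). For Dclk1 the interval was -0.65 to 1.02 in CONV, -0.33 to 0.94 in GF and -0.17 to 0.96 in COLONIZED crypts. For Trpm5 it was -0.78 to 1.03, -0.35 to 0.94 and -0.36 to 0.64. All 6 intervals of Dclk1 and Trpm5 include 0. Without the 3 libraries of high Ern2, Alox5ap was at -0.51 (95% interval -1.73 to 0.71) and Ptgs1 at 0.89 (0.04 to 1.75) in COLONIZED crypts, Dclk1 was at 0.65 (-0.14 to 1.45) there and at -0.04 (-1.06 to 0.98) in GF crypts, and 0 of the 10 genes were called in any state. Trpm5 was then at -0.02 (-1.07 to 1.03) in GF crypts. Hpgds in GF crypts was at -1.51 (-2.82 to -0.21, DESeq2 adjusted p = 0.135), and at -0.45 with all libraries.

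The interaction term tested if the 2 genotypes responded to microbes by different amounts. Per the paper, the stool microbes of CONV mice differed between the genotypes. In CONV crypts genotype and microbial community therefore cannot be told apart, here or in the genotype comparison above. For the colonization of both genotypes the paper names CONV-WT donors. For CONV against GF, 0 of the 10 genes were called (background 0.178% by DESeq2, 0.00% by edgeR, and 8.72% at an unadjusted p under 0.05, with 0 of the 10). For COLONIZED against GF the same count was 0 (0.0280%, 0.00% and 5.76%, with 0 of the 10). With all libraries Alox5ap had the most negative terms, -1.13 (SE 0.86) and -0.62 (SE 0.43), and Ptgs1 was at 0.70 (SE 0.63) and 0.55 (SE 0.57). For Pou2f3 the terms were -0.63 (95% interval -1.85 to 0.60) and -0.20 (-1.36 to 0.95), and a gene called in WT and not in Ern2-/- crypts was therefore not shown to differ in response. Without the 3 libraries of high Ern2, 0 genes were called in either interaction, and the terms ran from -0.67 to 0.76 and from -0.22 to 1.79. Alox5ap was then at -0.67 (SE 0.99) and -0.05 (SE 1.02), above Il25 and Alox5 in the second, and Pou2f3 was at -0.39 and 0.33.

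Between lifelong exposure and the 14-day colonization 0 of the 10 genes were called. With the library total as a term, 5 were called in CONV-WT against COLONIZED-WT crypts, namely Trpm5, Dclk1, Avil, Alox5 and Alox5ap, and 0 in Ern2-/- crypts. The share of all genes called with that term is not given here, and the backgrounds that follow are of the fits without it. In CONV-WT against COLONIZED-WT crypts the background was 0.117% by DESeq2, 0.00% by edgeR and 8.89% at an unadjusted p under 0.05, where 0 of the 10 genes stood. In CONV-Ern2-/- against COLONIZED-Ern2-/- crypts it was 8.37%, 0.282% and 29.8%, where Alox5 alone stood. All 3 CONV-Ern2-/- libraries were above all COLONIZED-Ern2-/- libraries for Alox5 (35.6% of all genes had ranges that did not overlap), with a log2 difference of 0.75 (SE 0.28, DESeq2 adjusted p = 0.0443), which was 0.59 (DESeq2 adjusted p = 0.411) without the 3 libraries of high Ern2. The median over the 10 genes was 0.28 in WT and 0.22 in Ern2-/- crypts.

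Of a list of 30 other tuft cell genes, 29 were in the table, and their calls against GF were higher with 1 exception. In CONV-WT against GF-WT crypts 12 were called higher and 0 lower (median 1.48), and among these the log2 fold change was largest for the kinase gene Bmx (2.44, SE 0.49), the tubulin gene Tuba1a (2.25), the adaptor gene Fyb (2.08) and the G protein regulator Rgs13 (2.05). In COLONIZED-WT against GF-WT crypts 14 were higher (median 1.11), led by Plcb2, the phospholipase of the taste cascade (1.91, SE 0.31), with Bmx (1.76), Tuba1a (1.66) and Hmx2 (1.54). In Ern2-/- crypts 10 were higher and 1 lower in CONV (median 1.23) and 5 were higher in COLONIZED (median 1.01), each against GF. The background of genes called higher is that given above for each comparison, from 1.58% to 9.13%. The edgeR test called 4 of the list in COLONIZED-WT and 0 in the other comparisons with GF, where 19, 19 and 18 genes of the list in CONV-WT, CONV-Ern2-/- and COLONIZED-Ern2-/- were higher at an unadjusted p under 0.05 in DESeq2, beside 15.8%, 9.18% and 11.9% of all genes. With the 3 libraries of high Ern2 left out, DESeq2 called 5 of the list higher and 0 lower in CONV-Ern2-/- (median 1.29) and 4 higher in COLONIZED-Ern2-/- crypts (median 1.29).

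In Ern2-/- crypts the succinate receptor gene Sucnr1 (3.13, SE 0.82), the kinase gene Matk (2.63), the short-chain fatty acid receptor gene Ffar3 (2.48) and the IL-25 receptor gene Il17rb (1.90) had the largest called changes in CONV-Ern2-/- against GF-Ern2-/- crypts. Sucnr1 had 3 to 8 reads per GF-Ern2-/- library, and in CONV-WT against GF-WT crypts it was at 3.11 (SE 1.10, DESeq2 adjusted p = 0.0314), with an interaction term of 0.01 (SE 1.34). Il17rb (1.86), Ffar3 (1.75), Matk (1.62) and Cd24a (1.10) had the largest in COLONIZED-Ern2-/- crypts. Hepacam2 was the one gene of the list called lower than in GF, by -1.34 (SE 0.31, DESeq2 adjusted p = 0.000655) in CONV-Ern2-/-, and together with Pla2g4a (-0.999) it was lower in CONV-Ern2-/- than in COLONIZED-Ern2-/- crypts (-1.38). Between the genotypes 0 of the list were called. Without the 3 libraries of high Ern2, Matk (3.01) and Ffar3 (2.43) were still called in CONV-Ern2-/- and Matk (2.30) in COLONIZED-Ern2-/- crypts, each against GF, while Sucnr1 (2.36, DESeq2 adjusted p = 0.234), Il17rb (2.15, 0.0256) and Hepacam2 (-1.21, 0.116) were not called in CONV-Ern2-/- crypts. Nor were Il17rb (2.36, 0.0154), Ffar3 (1.91, 0.0286) and Cd24a (1.32, 0.0182) in COLONIZED-Ern2-/- crypts. In CONV-Ern2-/- against COLONIZED-Ern2-/- crypts Hepacam2 (-1.08, DESeq2 adjusted p = 0.0989) and Pla2g4a (-0.918, 0.0570) also lost their calls in that setting. The edgeR test called 0 of the list in this comparison with all libraries. In that one fit without the 3 libraries, Hepacam2 (-1.33) and Pla2g4a (-1.12) also had called negative differences between the genotypes in CONV crypts, though all 6 of those libraries were kept.

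The broader single-cell tuft cell signature that the study used, of which 487 genes were in the table, had calls in both directions. In COLONIZED-WT against GF-WT crypts 73 of them were called higher and 51 lower, with a median log2 fold change of 0.07 beside -0.01 for all genes. Of all genes, 9.13% were called higher and 8.75% lower. In CONV-WT against GF-WT crypts 47 were higher and 26 lower (median 0.10, with 5.56% of all genes called higher and 5.14% lower), in CONV-Ern2-/- against GF-Ern2-/- 35 and 9 (0.15, 1.58% and 2.78%), and in COLONIZED-Ern2-/- against GF-Ern2-/- 31 and 25 (0.06, 3.62% and 3.60%). Without the 3 libraries of high Ern2, the last 2 pairs of counts were 30 and 2, and 27 and 13. The edgeR test called 35 genes of the signature in COLONIZED-WT, 2 in CONV-WT, 0 in CONV-Ern2-/- and 2 in COLONIZED-Ern2-/- crypts against GF, where 109 in CONV-Ern2-/- were higher at an unadjusted p under 0.05 in DESeq2 (9.18% of all genes). Over all genes edgeR called 630 of 12761, 22 of 12603, 4 of 12318 and 27 of 12519 in the same order. All 10 tuft cell genes of this account are in that signature.

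Of 10 genes of succinate and taste signalling, which overlap the list of other tuft cell genes, 7 were tested in each comparison with GF. Of these, 1 was called higher in CONV-WT (background 5.56%), 1 in COLONIZED-WT (9.13%), 3 in CONV-Ern2-/- (1.58%) and 1 in COLONIZED-Ern2-/- crypts (3.62%). The edgeR test called 0, 1, 0 and 0 of the list in the same order. At an unadjusted p under 0.05 in DESeq2, 4, 3, 5 and 3 were higher, beside 15.8%, 19.0%, 9.18% and 11.9% of all genes. When the 3 libraries of high Ern2 were left out, 2 were called higher in CONV-Ern2-/- and 1 in COLONIZED-Ern2-/- crypts. Among 17 other genes of the eicosanoid pathway, 8 to 10 had an adjusted p in the comparisons with GF, and their median log2 fold change was 0.05 in CONV-WT, 0.02 in COLONIZED-WT, -0.09 in CONV-Ern2-/- and 0.10 in COLONIZED-Ern2-/- crypts. In the same order 2, 2, 0 and 0 were called higher (background 5.56%, 9.13%, 1.58% and 3.62%) and 0, 2, 0 and 1 lower (5.14%, 8.75%, 2.78% and 3.60%), while edgeR called 0, 1, 0 and 0. At an unadjusted p under 0.05 in DESeq2, 2, 3, 1 and 2 were higher, beside 15.8%, 19.0%, 9.18% and 11.9% of all genes. Ltc4s, the leukotriene C4 synthase gene, was higher than in GF in CONV-WT (1.48) and COLONIZED-WT crypts (1.14), as was Ptges3 (0.89 and 0.67), whose product is a prostaglandin E synthase and chaperone partner. Hpgd, the gene of the enzyme that inactivates prostaglandins, was lower in COLONIZED-WT (-1.37) and COLONIZED-Ern2-/- (-1.41) than in GF crypts, and the prostaglandin receptor gene Ptger4 was lower in COLONIZED-WT (-0.55). In CONV-Ern2-/- crypts Hpgd was at -0.98 (DESeq2 adjusted p = 0.102). It was at -1.70 without the 3 libraries of high Ern2, when GF-Ern2-/- replicate 2 is the only GF-Ern2-/- library. That library had a summed level of the 17 genes of 17231, against 9477 and 10413 in the other GF-Ern2-/- libraries. Ptgds and Alox12 had 0 counts in all 18 libraries.

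On the side of the innate lymphoid circuit, which IL-25 feeds, Il13, Il4, Il5 and Il9 had 0 counts in all 18 libraries. Retnlb, which encodes a goblet cell lectin that IL-13 can raise, went from 172 to 376 normalised counts in GF-WT to 4448 to 9397 in COLONIZED-WT (4.66, SE 0.31) and 7504 to 34427 in CONV-WT (6.25, SE 0.56). It was lower in Ern2-/- than in WT crypts in CONV (-4.30, SE 0.54) and COLONIZED (-4.45, SE 0.78), where 0 of the 10 tuft cell genes were called. In CONV-Ern2-/- against GF-Ern2-/- crypts it was at 3.06 (SE 0.33, called), and at 2.76 (DESeq2 adjusted p = 0.0152) with the 3 libraries of high Ern2 left out. The edgeR test called Retnlb in COLONIZED-WT against GF-WT crypts (edgeR adjusted p = 0.00310) and not in CONV-WT (0.0118) or between the genotypes (0.0617 in CONV, 0.0659 in COLONIZED). In CONV-Ern2-/- against GF-Ern2-/- crypts edgeR called 0 genes of the circuit list that holds Retnlb. Of the 14 genes of this list, which holds Retnlb, 8 were tested in each WT comparison with GF. In COLONIZED-WT 3 were called higher (background 9.13%, median 0.30), Retnlb with Il17rb (1.13) and Il4ra (0.73), and in CONV-WT Retnlb alone (5.56%, median -0.46, with 3 of 8 above 0). In Ern2-/- crypts 2 of 7 were higher in CONV (1.58%) and 1 of 8 in COLONIZED (3.62%), each against GF, and 0 were called in either with the 3 libraries of high Ern2 left out. Il13ra1, a receptor gene for IL-13, was called between the genotypes in COLONIZED crypts, with the Ern2-/- label higher (0.76, SE 0.17, where 1.36% of all genes were called), and in CONV-WT against COLONIZED-WT crypts 0 of 8 were called (median -0.22, 1 above 0). In the fit that left out the 3 libraries, 0 genes of the list were called higher with the Ern2-/- label in COLONIZED crypts.

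**Figure D3:**
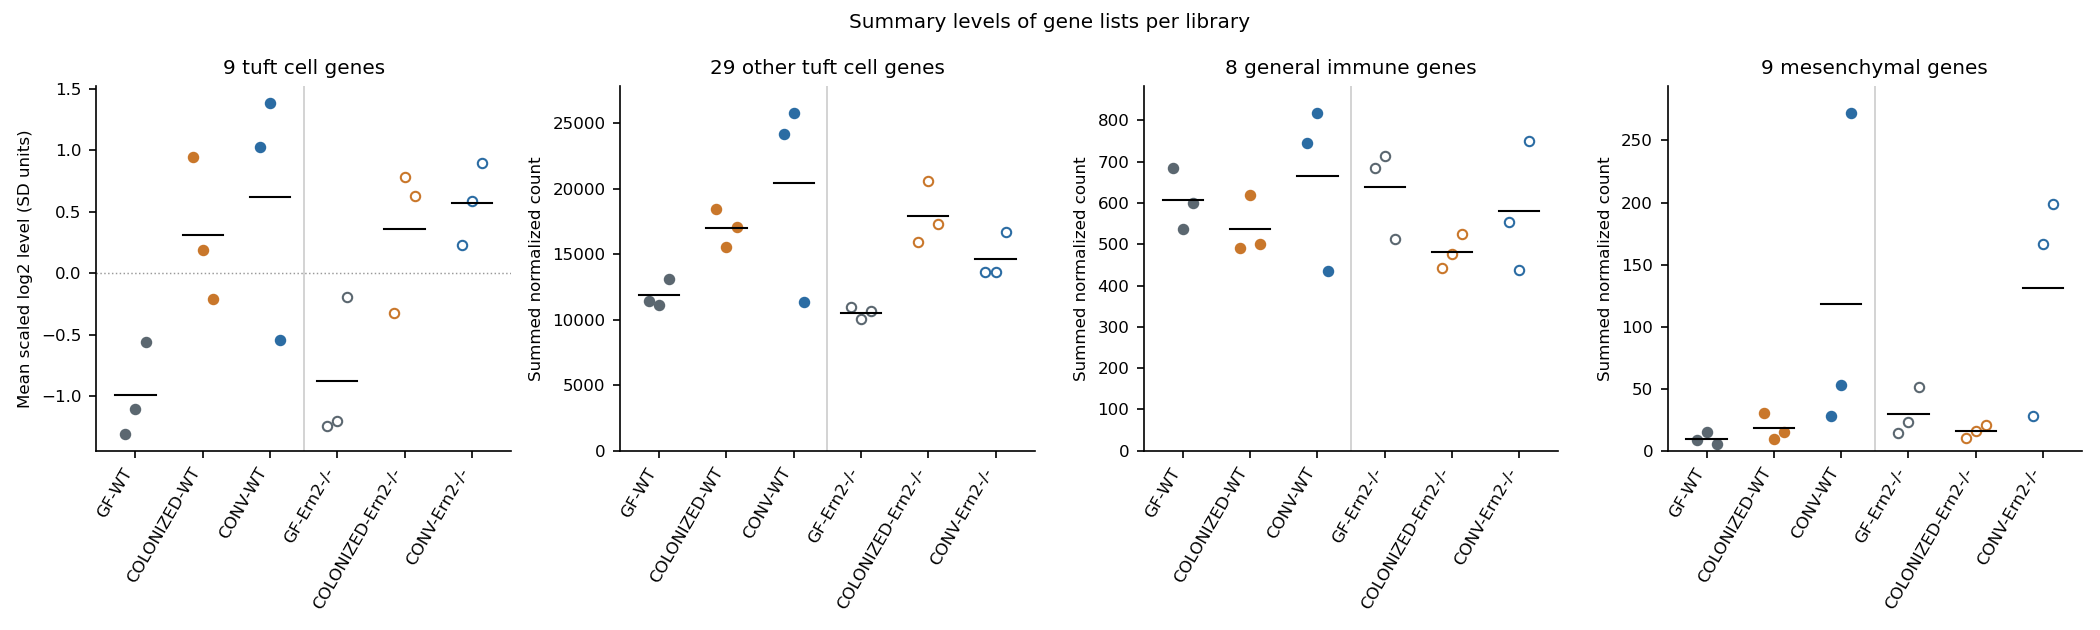
Per library, the mean scaled level of 9 of the tuft cell genes (Il25 left out) and the summed normalised counts of 29 other tuft cell genes, 8 general immune genes and 9 mesenchymal genes, by group. CONV-WT replicate 3 is low in both tuft cell panels and highest, at 272, in the mesenchymal panel. Cd24a (mean 6551 normalised counts) and Hepacam2 (mean 2155) weigh most in the sum of the 29 genes.

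Several of the 10 genes are also used by blood cells, so the markers of those cells were measured in the same libraries. The summed level of 8 general immune genes was 537 to 684 in GF-WT, 492 to 619 in COLONIZED-WT and 435 to 818 in CONV-WT, and 514 to 714, 441 to 526 and 438 to 751 in the same states of Ern2-/-. Its members went different ways. Lcp1, an actin-bundling gene with the highest counts of the list, was lower than in GF in COLONIZED-WT (-0.73), CONV-Ern2-/- (-1.64) and COLONIZED-Ern2-/- crypts (-1.22), while Rac2, a small GTPase gene, was higher in CONV-WT (1.73), CONV-Ern2-/- (1.84) and COLONIZED-Ern2-/- crypts (1.40). These are DESeq2 calls. The edgeR test called 0 genes of the list in any comparison with GF. At an unadjusted p under 0.05 in DESeq2, 2 were higher in CONV-WT and 2 in COLONIZED-WT crypts (15.8% and 19.0% of all genes). In CONV-Ern2-/- crypts 2 were higher and in COLONIZED-Ern2-/- crypts 1 (9.18% and 11.9%). With the 3 libraries of high Ern2 left out, Lcp1 stayed called in both Ern2-/- comparisons (-1.71 and -1.61) and Rac2 did not (1.68, DESeq2 adjusted p = 0.0283, and 1.52, 0.0577). Ptprc, which is also in the study's tuft cell signature, was at 1.70 in CONV-WT (DESeq2 adjusted p = 0.0536). The part of leukocytes in the tuft cell gene levels was not tested. Of the 8 mast cell markers, Fcer1a was at 0 in all 18 libraries, Cpa3 at 0 in 15 and Mcpt4 at 0 in 17, while the other 5 were counted in most libraries, the most for the chymase gene Cma1 (mean 15.5 normalised counts, highest 31.1, at 0 in 3). The sum of the 8 was 27.8 to 43.8 in GF-WT, 21.4 to 41.1 in COLONIZED-WT and 5.48 to 23.6 in CONV-WT, and 24.0 to 57.4, 21.6 to 43.4 and 5.22 to 22.1 in the same states of Ern2-/-. Cma1 was at 0 in all 3 CONV-Ern2-/- libraries and at 19.8 to 29.8 in GF-Ern2-/- libraries, and it was the 1 gene called of the 2 tested there (DESeq2 adjusted p = 0.000684, with 2.78% of all genes called lower). The part of mast cells in the tuft cell gene levels was not tested. The neutrophil genes S100a8 and S100a9 and the globin genes Hba-a1 and Hba-a2 were at 0 in all 18 libraries. The sum of 10 macrophage and neutrophil genes was 22.3 to 39.9 in GF-WT, 14.3 to 113.5 in COLONIZED-WT and 24.5 to 73.0 in CONV-WT. In Ern2-/- it was 22.4 to 73.0 in GF, 34.2 to 59.2 in COLONIZED and 84.4 to 130.5 in CONV. Every CONV-Ern2-/- library was thus above every GF-Ern2-/- library, as for 8 of the 10 tuft cell genes and 11.6% of all genes. Of the 4 genes of this list that had an adjusted p there, 0 were called and 1 was higher at an unadjusted p under 0.05 in DESeq2 (9.18% of all genes), and edgeR also called 0. The part of macrophages and neutrophils in the tuft cell gene levels was not tested. The enteroendocrine sum, another rare epithelial type, was 1514 to 3503 in GF-WT, 2640 to 3939 in COLONIZED-WT and 1901 to 2469 in CONV-WT. In Ern2-/- it was 1082 to 1505 in GF, and with no overlap 2641 to 7889 in COLONIZED and 2180 to 2914 in CONV, where 5 and 3 of 8 genes were called higher than in GF (medians 1.63 and 1.05, background 3.62% and 1.58%), so this type moved with the tuft cell genes there between groups. Within groups its 8 genes had a median r of 0.0427 with the mean of the tuft cell genes. The edgeR test called 0 of the 8 in both comparisons. At an unadjusted p under 0.05 in DESeq2, 8 were higher in COLONIZED and 4 in CONV, beside 11.9% and 9.18% of all genes. The DESeq2 counts were 1 and 0 without the 3 libraries of high Ern2 (medians 1.64 and 0.88). In COLONIZED-WT against GF-WT crypts all 8 were above 0 with a median of 0.65 and 1 called, and in CONV-WT the median was 0.49 with 0 called. The part of this type in the tuft cell gene levels was not tested.

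**Figure D4:**
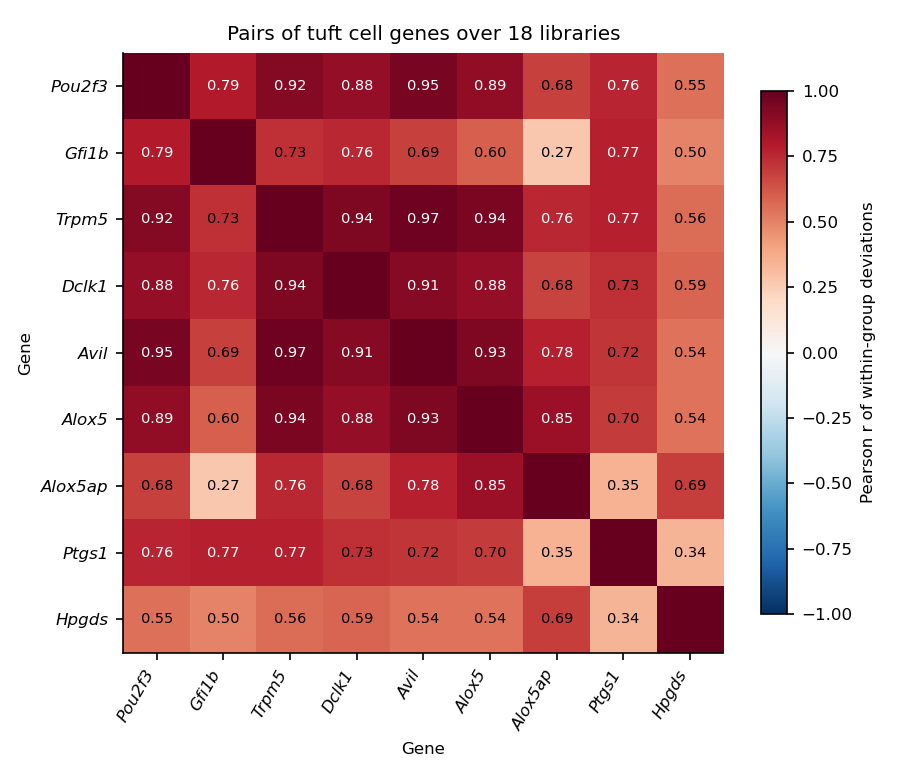
Pearson r between 9 of the tuft cell genes over 18 libraries, after the group mean was taken off each log2 value (colour scale, r). Trpm5 and Avil have the highest value, 0.973, and Gfi1b and Alox5ap the lowest, 0.269.

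Within groups the genes also varied together, from mouse to mouse. Each was expressed as log2(normalised count + 1) minus its group mean, with Il25 left out for its low counts. Over the 18 libraries, which share depth and RNA preparation across genes, the 36 pairs had a median Pearson r of 0.745, from 0.269 (Gfi1b and Alox5ap) to 0.973 (Trpm5 and Avil). Leaving out each group in turn, chosen after seeing the data, gave medians of 0.712 to 0.788. Trpm5 followed the mean of the other genes most closely (r = 0.966) and Hpgds least (0.602). COLONIZED-WT replicate 1 was the highest of its group for all 10 genes, while COLONIZED-WT replicate 3 was the lowest for 9 of them.

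Among 12432 genes with a mean of at least 10 normalised counts, those whose deviations were most like the mean of these genes were Pik3r5 (r = 0.969), Spib (0.963), Sh2d7 (0.958), Sptb (0.935), 1810046K07Rik (0.927), Bmx (0.923), Col15a1 (0.921), Ccdc129 (0.911), Ptprc (0.900) and St18 (0.899). Pik3r5, Spib and Bmx are on the list of other tuft cell genes, whose median r was 0.749, and the median of all genes was 0.0438. All of these except Sptb and Col15a1 are in the tuft cell signature that the study used. Ptprc, the gene of the leukocyte antigen CD45, is thus in that signature and also on the general immune list. Of the immune list, 5 genes passed the level filter, with a median r of -0.154. The endothelial marker Pecam1 ran against the tuft cell genes, with r = -0.815, and with r = -0.639 without the CONV-WT libraries. It was the 1 endothelial marker of 4 with enough counts, at a mean of 30.9. Cdh5, Kdr and Emcn were at 0 in 15, 13 and 14 of the 18 libraries (means 0.137, 0.413 and 0.335). The sum of the markers that follows is thus almost Pecam1 alone. The summed level of the endothelial markers was 28.4 to 42.0 in GF-WT, 11.4 to 23.0 in COLONIZED-WT and 5.93 to 56.6 in CONV-WT. In Ern2-/- it was 30.2 to 59.2 in GF, 6.02 to 11.4 in COLONIZED and at least 46.9 in each CONV library. Pecam1 was lower in COLONIZED-Ern2-/- than in GF-Ern2-/- crypts (-2.24, SE 0.53, DESeq2 adjusted p = 0.000712), and was at -2.95 (DESeq2 adjusted p = 0.0305) without the 3 libraries of high Ern2. Whether Pecam1 alone follows the content of endothelial cells, and their part in the tuft cell gene levels, was not tested.

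Exons of Trpm5, Dclk1, Avil, Alox5ap and Ptgs1 overlap exons of genes on the opposite strand, over 27 to 220 bases per gene pair, the most for Trpm5 and Tssc4. The kit kept the strand of the RNA, but the strand setting of the counting is not given in the sources used here, so reads from those bases could belong to either gene.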

How the data were processed

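Colon crypt RNA of 18 mice was measured by RNA-Seq from stranded mRNA libraries. Per the study's methods, the authors aligned single-end reads with STAR, and the submitters' processing notes name mm10. The deposited values are raw counts of reads per gene symbol, neither normalised nor pooled. The labels give each sample its column number, which set the mapping, and 0 columns belonged to no sample. Of 24047 genes, 18217 had a count, and 2 symbols occurred more than once.

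Each of 9 comparisons was fitted over all genes on its own 6 libraries, and each of 2 interactions on 12, using DESeq2 1.42.0 (Wald test, R 4.3.3), the tool and threshold of the study's methods. Size factors, Cook's filter and independent filtering were the defaults, fold changes were not shrunken, and calls needed a p adjusted by Benjamini-Hochberg over all genes under 0.01. Independent filtering left Il25 without an adjusted p in the COLONIZED genotype comparison and the CONV interaction. Alternatives were edgeR 4.0.16 (quasi-likelihood test after its filterByExpr), TMM factors, a low count filter (at least 10 counts in 3 libraries), one fit of 18 libraries, a replicate block, sex and library total terms, and leaving libraries out. The fits were tested on simulated data. The members and lists were chosen with earlier results of these data known. All 10 members are named, and of other lists at most the 4 largest called changes per comparison. The names of the study's tuft cell signature were read from its supplement, without its values. Gene positions come from GENCODE on GRCm38.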

Additional observations from a re-analysis of the deposited data

How the results depend on the processing

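Over all settings and genes, 1608 values of the 10 genes were recomputed. The sign changed in 141, none of them called in either fit, 68 lost a call, 36 gained one and 1363 kept their sign and call. The number called in CONV-WT against GF-WT crypts, 5, became 0 with edgeR and 0 with a sex term, and 0 to 7 when 1 library was left out. In COLONIZED-WT against GF-WT crypts, 6 became 3 with edgeR and 0 with a sex term, and 5 to 6 when 1 library was left out. In CONV-Ern2-/- against GF-Ern2-/- crypts, 4 became 0 with edgeR, 0 with the library total as a term, 1 without the 3 libraries of high Ern2, 6 with a sex term, and 1 to 6 when 1 library was left out. In COLONIZED-Ern2-/- against GF-Ern2-/- crypts, 1 became 0 with edgeR, 2 in one fit of 18 libraries, 4 with a sex term, 5 with the library total, 2 without the 3 libraries of high Ern2, and 0 to 5 when 1 library was left out. In CONV-WT against COLONIZED-WT crypts 0 became 5 with the library total as a term, and in CONV-Ern2-/- against COLONIZED-Ern2-/- crypts 0 became 0 to 1 when 1 library was left out (1 without CONV-Ern2-/- replicate 1). The setting without those 3 libraries also fits all remaining 15 libraries at once, so 2 choices change together. One fit of 18 libraries alone gave 6, 4, 3 and 2 calls in CONV-WT, COLONIZED-WT, CONV-Ern2-/- and COLONIZED-Ern2-/- against GF. Fewer libraries or residual degrees of freedom enter some of these fits, and otherwise the cause was not tested. Shares of all genes are given above for the main DESeq2 fits and edgeR alone, so counts in other settings stand without a background. The 3 genotype comparisons and both interactions gave 0 calls in every setting run.

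Replicate numbers were the same across groups, and the labels do not say whether they pair the mice. Correlations of the within-group deviations of same-numbered libraries ran from -0.236 to 0.592. In none of the 9 comparisons were all 3 over 0.1, though in CONV-WT against GF-WT they were 0.421, 0.0389 and 0.326. With 3 libraries per group these values cannot tell whether mice were paired. The main fits took the mice as unpaired. With the replicate block, 3 genes were called in CONV-WT against GF-WT crypts, 6 in COLONIZED-WT, 5 in CONV-Ern2-/- and 5 in COLONIZED-Ern2-/- crypts against GF, and 0 in the other comparisons. Depth limits Il25, with 2 to 9 reads per library, and Gfi1b most.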
